A study of Mus musculus with 6 samples.

Results

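Gadd45a, Gadd45b and Gadd45g are the 3 mouse genes of the growth arrest and DNA damage-inducible 45 family. They were taken by symbol from a table of 43346 genes counted by RNA sequencing in liver tumours, and all 3 were in the table and above the low-count filter. The family was picked with the difference between Gli1 KO and Gli1 WT tumours already known, so that difference is given for its members as a description and no test is used to support it. The tumours were induced with DEN (diethylnitrosamine, a carcinogen that alkylates DNA in the liver). All came from mice that overexpress SULF2, a sulfatase acting on heparan sulfate, from a transgene that the labels call Sulf2-TTR. There were 3 Gli1 KO tumours, which lack the Hedgehog pathway transcription factor GLI1, and 3 Gli1 WT tumours with the gene intact. The labels do not spell out TTR, give no age, and leave unsaid if the 3 tumours of a genotype are from 3 animals. Any p-value here therefore reflects variation among these samples, which may be technical. The question was what the loss of GLI1 alters in tumours that form with excess SULF2.

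Summed gene counts ran from 76746128 to 132979502 reads in KO tumours and from 75205624 to 95777670 in WT tumours. Gli1 itself had 4, 3 and 3 reads in KO replicates 1, 2 and 3, against 10, 20 and 7 in the WT replicates, which was low in both genotypes and in the direction of the labels. Sulf2 had 164.5, 2.63 and 10.2 normalized CPM (the read count relative to the TMM-scaled library size) in the KO replicates and 76.4, 11.6 and 5.33 in the WT replicates, so reads counted to the mouse Sulf2 gene varied widely within each genotype. The labels do not say which Sulf2 sequence the transgene carries, so it is unknown if these reads include those of the transgene. The 7 hepatocyte markers found, among them Alb, summed to 141098 to 159920 CPM in KO and 146835 to 198777 in WT, as the tissue label implies. On the first principal component, with 42.7% of the variance, KO replicate 1 (65.2) and WT replicate 3 (80.9) stood apart from the other 4 tumours (-67.9 to -6.95).

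GADD45 proteins are small, acidic nuclear and cytoplasmic proteins without a known enzymatic activity. They work by binding other proteins: the kinase MAP3K4, which they switch on to activate p38 and JNK, the cyclin B1 and CDK1 complex, PCNA and p21, and enzymes of DNA repair and DNA demethylation. Each member answers to its own set of signals. Gadd45a is the classical p53 target and is also driven by ATF4, FOXO and BRCA1. Gadd45b is induced by NF-kB and TGF-beta, and in mouse liver by TNF and during regeneration. Gadd45g was found as a gene induced by cytokines such as interleukin 2 and oncostatin M.

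The promoters are shown because the members were unequal in level and in pattern across the tumours, and the stretch just upstream of each start is where their sequences can be set side by side. Each run covers the bases from -250 to -19 relative to the RefSeq start in GRCm38.p6, 5′ to 3′ on the gene's own strand, with CCAAT boxes, TATA boxes, E-boxes and octamers (on either strand) in capitals. For Gadd45a the deposited gene begins further upstream, at 67037457 on the minus strand. The last bases of its run therefore lie inside the gene as deposited, and its motif positions would shift with that start.
Gadd45a, minus strand, chr6:67037426-67037657: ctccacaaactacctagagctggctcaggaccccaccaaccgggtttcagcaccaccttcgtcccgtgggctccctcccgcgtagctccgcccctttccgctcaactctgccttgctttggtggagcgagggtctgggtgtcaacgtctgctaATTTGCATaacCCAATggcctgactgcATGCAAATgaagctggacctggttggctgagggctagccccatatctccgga
Gadd45b, plus strand, chr10:80929841-80930072: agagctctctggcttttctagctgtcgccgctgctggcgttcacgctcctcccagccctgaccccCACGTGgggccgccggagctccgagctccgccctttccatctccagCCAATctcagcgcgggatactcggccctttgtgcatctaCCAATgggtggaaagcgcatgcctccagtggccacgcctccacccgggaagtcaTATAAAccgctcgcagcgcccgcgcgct
Gadd45g, plus strand, chr13:51846425-51846656: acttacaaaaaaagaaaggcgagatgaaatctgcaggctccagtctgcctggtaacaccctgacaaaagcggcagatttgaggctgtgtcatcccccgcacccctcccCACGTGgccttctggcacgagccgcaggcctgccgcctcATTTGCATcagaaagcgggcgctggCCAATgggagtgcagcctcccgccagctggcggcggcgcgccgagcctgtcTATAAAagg

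Motifs were searched on both strands of the RefSeq windows of 300 bases, which run 50 bases past the start. The 3 members shared the CCAAT box (CCAAT, in 37.4% of the 32851 windows of all genes), with 1 match in Gadd45a, 2 in Gadd45b and 1 in Gadd45g. The octamer ATTTGCAT, found in 1.74% of windows, had 2 matches in Gadd45a (-97 to -90 and -70 to -63), which flank its CCAAT box, and 1 in Gadd45g (-103 to -96). In the human GADD45A promoter, octamer and CCAAT sites of this kind bind OCT1 and NF-YA. An E-box CACGTG (7.15% of windows) and a TATA box TATAAA (13.6%) were present in Gadd45b and Gadd45g and not in the Gadd45a window. A GC box GGGCGG (35.7% of windows) was present in Gadd45a and Gadd45b. No window of the 3 held the STAT palindrome TTCNNNGAA (8.3% of windows), the NF-kB consensus (8.46%), the GLI consensus GACCACCCA (0.253%), the EGR1 consensus GCGTGGGCG (0.612%), the FOXO core GTAAACA (3.65%), the cyclic AMP response element TGACGTCA (1.79%) or the D-box TTATGTAA (0.938%). The windows of Gadd45a, Gadd45b and Gadd45g were 61.0%, 62.0% and 62.3% G and C.

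Gadd45g showed the widest gap between the genotypes. The gene (ENSMUSG00000021453, plus strand, chr13:51846678-51848468, 4 exons, no overlapping gene in GENCODE) had 349, 489 and 443 reads in KO replicates 1, 2 and 3, against 968, 1514 and 3287 in the WT replicates. As normalized CPM these were 3.32, 3.68 and 5.35 in KO and 12.1, 20.0 and 37.0 in WT. The KO tumours were all low and close together, the WT tumours were all higher and spread over a 3.05-fold range, and the lowest WT tumour lay 2.27 times above the highest KO tumour. Means were 4.11 ± 1.08 CPM in KO and 23.0 ± 12.7 CPM in WT (SD, n = 3 each), a ratio of 0.179. The fitted log2 fold change was -2.49 ± 0.44 (SE), and it was -1.96 ± 0.32 without WT replicate 3, the tumour with the highest level.

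Gadd45a was dominated by a single WT tumour. The gene (ENSMUSG00000036390, minus strand, chr6:67035096-67037457, 4 exons) had 585, 460 and 585 reads in KO replicates 1, 2 and 3, against 1682, 437 and 341 in the WT replicates. The CPM were 5.56, 3.46 and 7.06 in KO and 21.1, 5.77 and 3.83 in WT. WT replicate 1 was high, and the other 2 WT tumours lay inside the KO range. The log2 fold change was -0.93 ± 0.66 with all 6 tumours and 0.16 ± 0.39 without WT replicate 1. The 5′ part of Gadd45a overlaps E230016M11Rik, a noncoding gene on the opposite strand, by 859 bases. That gene had 453, 311 and 361 reads in KO replicates 1, 2 and 3 and 639, 249 and 190 in the WT replicates, with its highest count in the same tumour as Gadd45a. No source used here gives the strand setting of the counting, so reads of the pair cannot be told apart in the shared stretch.

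Gadd45b was the least abundant member and its genotypes overlapped as well. The gene (ENSMUSG00000015312, plus strand, chr10:80930091-80932204, 4 exons, no overlapping gene) had 226, 243 and 72 reads in KO replicates 1, 2 and 3 and 77, 219 and 721 in the WT replicates. These were 2.15, 1.83 and 0.869 CPM in KO and 0.964, 2.89 and 8.10 CPM in WT. WT replicate 3 was high and WT replicate 1 lay at the level of KO replicate 3. The log2 fold change of -1.30 ± 0.76 was -0.25 ± 0.60 without WT replicate 3, and -1.76 ± 0.59 without WT replicate 1. It was -0.48 ± 0.88 with the range of the label numbers as a covariate. These sample numbers were below 2000 for KO replicates 1 and 3 and WT replicate 1. They were above 3900 for KO replicate 2 and WT replicates 2 and 3, so the ranges are unequal between genotypes. The labels do not say what the numbers stand for.

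**Figure D1:**
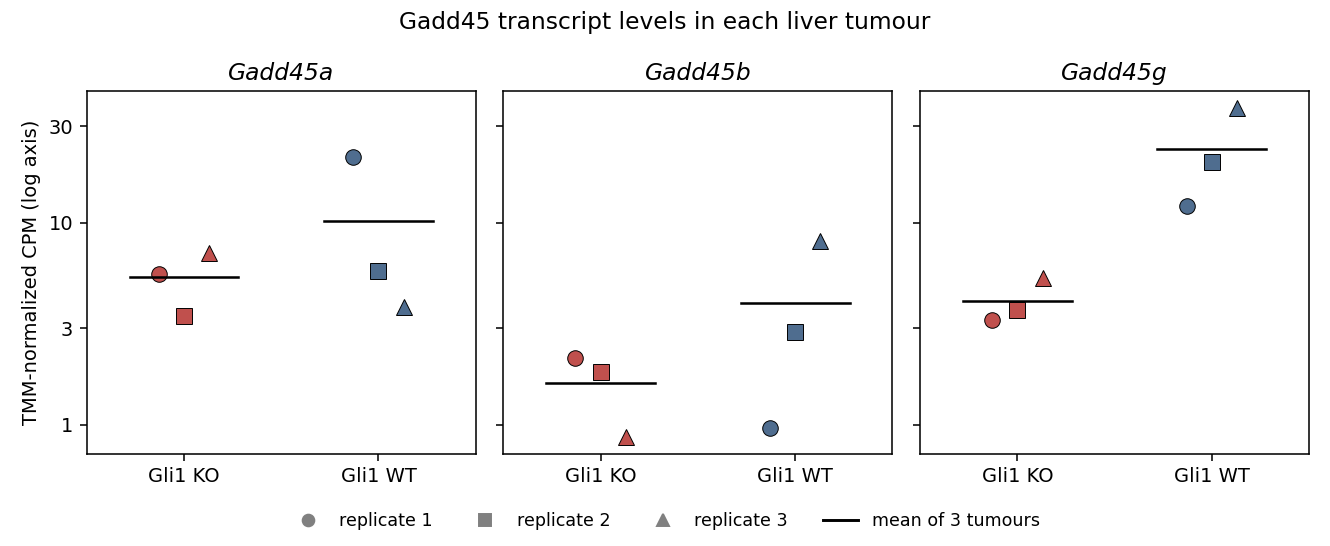
Normalized CPM (log axis) of Gadd45a, Gadd45b and Gadd45g in each tumour, Gli1 KO left and Gli1 WT right; symbols mark the replicate number and bars the mean of 3 tumours. The genotypes are separate for Gadd45g (3.32 to 5.35 CPM in KO, 12.1 to 37.0 CPM in WT) and overlap for Gadd45a and Gadd45b.

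Of the 3 members, all had a negative log2 fold change (51.8% of the 18359 genes tested did) and 1, Gadd45g, had all KO tumours below all WT tumours (3.96% of genes tested). By edgeR's quasi-likelihood test or limma voom, 0 of the 3 passed FDR 0.05, as did 0% of all genes tested. DESeq2 called 1 member, Gadd45g, lower in KO, against 0.352% of the genes it adjusted, or 0.225% counting only those lower in KO. Because the members were chosen on this contrast, nothing is read from these counts. At an unadjusted p below 0.05, edgeR had 665 genes, or 3.62% of those tested, with 2.02% of those tested lower in KO.

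Since the 3 transcripts differ in length, their levels were compared with each other as the deposited RPKM (read count scaled by library and by the table's coding length). That length was 1764, 1266 and 1173 bases for Gadd45a, Gadd45b and Gadd45g. A GENCODE transcript of each has 1223, 1284 and 1071 exonic bases. Shares and ratios between members therefore depend on the length used, and the deposited one sets Gadd45a lower. Summed over the family the deposited values were 7.47, 5.80 and 8.84 RPKM in KO replicates 1, 2 and 3 and 17.7, 19.1 and 32.8 in the WT replicates, so each WT tumour held more Gadd45 transcript per length than any KO tumour. The means were 7.37 ± 1.52 RPKM in KO and 23.2 ± 8.36 in WT (SD, n = 3 each). Most of that gap was Gadd45g, which had 2.75, 2.78 and 4.36 RPKM in KO and 7.93, 14.4 and 25.8 in WT. Its share of the family RPKM was 36.8%, 47.9% and 49.3% in KO and 44.9%, 75.4% and 78.6% in WT, and these shares overlapped.

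The order of the members differed from tumour to tumour. By the deposited RPKM, Gadd45g was the highest in WT replicates 2 and 3 and in KO replicates 2 and 3. Gadd45a was the highest in WT replicate 1 (9.17 against 7.93 RPKM of Gadd45g) and KO replicate 1 (3.07 against 2.75 RPKM). In KO replicate 3 Gadd45a and Gadd45g were close (3.83 and 4.36 RPKM), so their order there depends on the length used. Gadd45b was the lowest everywhere except WT replicate 3, where it had 5.24 RPKM and Gadd45a 1.78. The ratio of Gadd45g to Gadd45a ran from 0.897 to 1.60 in KO and from 0.865 to 14.5 in WT. WT replicate 1 and WT replicate 3 were therefore opposite in make-up, one rich in Gadd45a and the other in Gadd45g and Gadd45b.

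**Figure D2:**
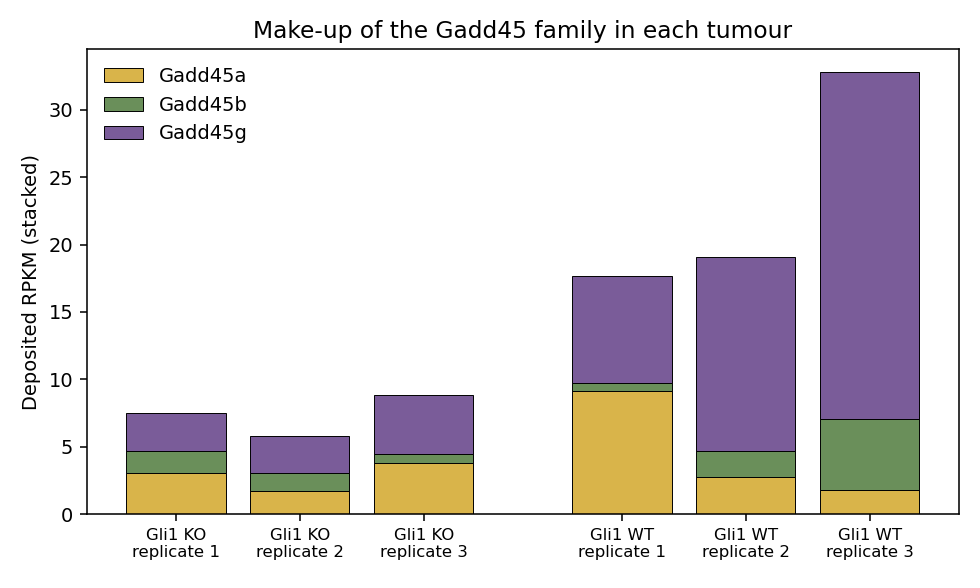
Deposited RPKM of Gadd45a, Gadd45b and Gadd45g stacked for each tumour, Gli1 KO left and Gli1 WT right. The family sum is 5.80 to 8.84 RPKM in KO and 17.7 to 32.8 RPKM in WT, and Gadd45a makes up 51.8% of the sum in WT replicate 1 but 5.42% in WT replicate 3.

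Across the 6 tumours the members did not follow a common profile. The root-mean-square difference between 2 mean-centred log2 CPM profiles was 1.03 for Gadd45b and Gadd45g, 1.50 for Gadd45a and Gadd45g and 1.73 for Gadd45a and Gadd45b. Of all genes, 31.2% lay nearer to Gadd45b than Gadd45g did, and 91.8% lay nearer to Gadd45a than Gadd45g did. The profiles were not scaled, so the difference depends on how much a gene varies as well as on its pattern. A gene of constant level would lie 0.851 from Gadd45a and 1.06 from Gadd45b.

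The genes whose profiles were most like each member were different ones. Nearest to Gadd45g were Retnlg, a secreted neutrophil protein (difference 0.36), the cytokine Il1a (0.43), Nfil3, a basic leucine zipper repressor (0.43), and the uncharacterised 4930452B06Rik (0.45) and 1200007C13Rik (0.52). Retnlg had 0.304, 0.324 and 0.290 CPM in KO replicates 1, 2 and 3 and 1.55, 1.63 and 2.62 CPM in the WT replicates, and Nfil3 had 5.79, 7.12 and 8.24 CPM in KO and 22.1, 22.5 and 31.0 CPM in WT. All 5 of these neighbours had every KO tumour below every WT tumour, as Gadd45g did. For 4930452B06Rik the gap was narrow (0.471 CPM in KO replicate 3, 0.476 CPM in WT replicate 1). They were chosen for likeness to the Gadd45g profile, so nothing is read from their sharing its pattern. Among those nearest to Gadd45a were the calcium channel gene Cacna1i (0.12), the inositol monophosphatase Impa2 (0.26), Slc22a17 (0.27) and Cyp2d34 (0.27), which all peaked in WT replicate 1. Nearest to Gadd45b were 9130208D14Rik (0.20), Gm15350 (0.25), Nos1ap (0.27), RP23-122P5.3 (0.29) and Peak1os (0.34), which all peaked in WT replicate 3. Of the neighbours named, Impa2, Cyp2d34, Nos1ap, Il1a and Nfil3 exceeded 3 CPM in at least 1 tumour and the others were below that in all 6. Likeness was measured over 6 samples that also differ in genotype.

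**Figure D3:**
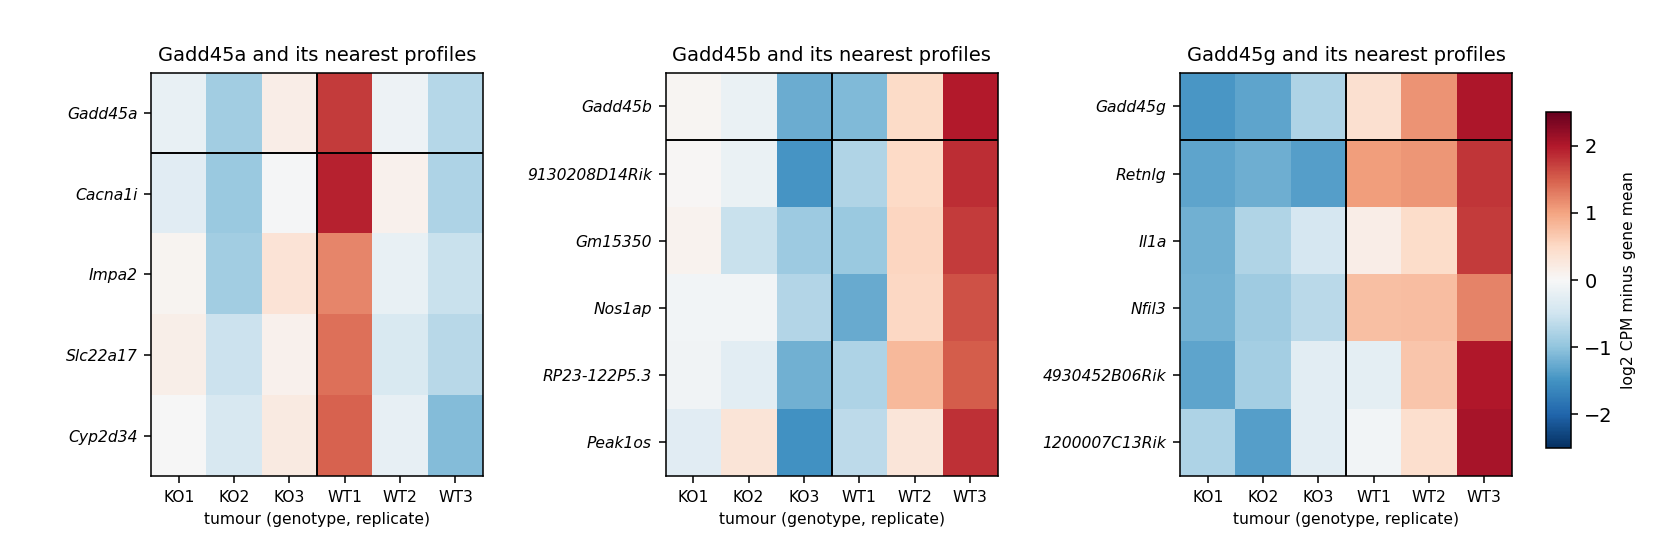
Log2 CPM minus the gene's mean over the 6 tumours (colour) for each member, in the top row, and its nearest profiles, with KO tumours left of the vertical line and WT tumours right of it. Gadd45a and its neighbours peak in WT replicate 1 and Gadd45b and its neighbours in WT replicate 3. Gadd45g and its neighbours are higher in all 3 WT tumours than in any KO tumour.

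The genes around the family were described from 12 lists of partners, regulators and co-induced stress genes, with 149 distinct genes tested. By edgeR, 0 of the 149 passed FDR 0.05 over all genes. At an unadjusted p below 0.05 there were 10, of which 9 were lower and 1 higher in KO, beside 3.62% of all genes tested (2.02% lower). DESeq2 called 3, Socs3, Pim1 and Cxcl1, all lower in KO, beside 0.352% of all genes it adjusted, and voom called 0. The log2 fold change was negative for 59.7% of the list genes and 51.8% of all genes. All KO tumours lay on one side of all WT tumours for 11.4% of the list genes, 13 lower and 4 higher in KO, against 8.11% of all genes tested (3.96% lower and 4.15% higher in KO). The median log2 fold change was -0.09 over the list genes and -0.01 over all genes. Log2 fold changes of single genes below are KO minus WT with their SE (n = 3 per group), and none passed edgeR's adjustment.

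Of the 12 genes from MAP3K4 to p38 and JNK, 8 were negative, with a median of -0.05 and a range of -0.39 to 0.15. Map3k4, the kinase that GADD45 proteins bind and open, had 0.11 ± 0.17, Map2k4, which activates JNK and p38, had -0.24 ± 0.22, and the p38 isoform Mapk12 had -0.39 ± 0.26. Of 5 cell cycle partners, 3 were negative, with a median of -0.09. Cdkn1a, which encodes p21, had 25.1, 26.4 and 22.6 CPM in KO and 20.5, 16.3 and 57.9 CPM in WT (-0.35 ± 0.47), high only in WT replicate 3, without which it was 0.43 ± 0.17. The sliding clamp gene Pcna had 0.60 ± 0.33 and Cdk1 0.90 ± 0.81, and KO replicate 3 had the highest level of each, without which Pcna had 0.13 ± 0.18 and Cdk1 -0.08 ± 0.74. The median of this list was 0.89 without WT replicate 3 and -0.47 without WT replicate 2.

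Of 9 genes for DNA demethylation and repair, 3 were negative, with a median of 0.13. The glycosylase Mbd4 had 2.81 ± 0.51 CPM in KO and 1.85 ± 0.416 CPM in WT (SD, n = 3 each; 0.60 ± 0.30). Its genotypes were separate only by a near-tie, with 2.40 CPM in KO replicate 2 and 2.33 CPM in WT replicate 1. The dioxygenase Tet2 had 11.3 ± 0.942 CPM in KO and 14.2 ± 2.32 CPM in WT, with the highest KO and the lowest WT tumour both at 12.3 CPM (-0.33 ± 0.18). Tet1 had 1.00 ± 0.62 at under 0.5 CPM. Gadd45gip1, a mitochondrial ribosomal protein that can bind GADD45 proteins in the nucleus, had 0.13 ± 0.19.

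The other genes named for growth arrest or DNA damage all had overlapping genotypes. Ppp1r15a (GADD34), which directs the phosphatase that reverses eIF2 phosphorylation, had 9.28, 8.58 and 6.94 CPM in KO and 7.93, 9.49 and 33.8 CPM in WT (-1.05 ± 0.56), high in WT replicate 3 alone, and -0.07 ± 0.21 without it. Ddit4, an inhibitor of mTORC1, had its highest level in the same tumour (-0.47 ± 0.68, and 0.67 ± 0.39 without it), and its paralog Ddit4l had 0.87 ± 0.71. Ddit3 (GADD153, CHOP), the transcription factor of endoplasmic reticulum stress, had -0.06 ± 0.40. Over these 5 genes, Gadd45gip1 included, 3 were negative and the median was -0.06, which was 0.27 without WT replicate 1 and -0.33 without KO replicate 1 or WT replicate 2.

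Trp53, which encodes p53, had 0.12 ± 0.14, and of 21 p53 targets 11 were negative, with a median of -0.03 (0.25 without WT replicate 3 and -0.15 without KO replicate 1) and a range of -0.95 to 0.63. The targets of smallest p were Sesn1 (-0.39 ± 0.19), Ei24 (-0.42 ± 0.22) and Btg2 (-0.95 ± 0.85). Btg2 had 40.2 to 182 CPM in KO tumours and 120, 51.3 and 416 CPM in the WT replicates, and its log2 fold change was 0.25 ± 0.68 without WT replicate 3. Of the 16 upstream regulators tested, 6 were negative, with a median of 0.07. Brca1 had 5.30, 7.80 and 8.71 CPM in KO and 3.36, 4.57 and 4.68 CPM in WT (0.79 ± 0.27), without overlap. Cebpb (-0.44 ± 0.19) and Stat3 (-0.63 ± 0.28) were lower in every KO tumour than in any WT tumour. For Stat3 this was nearly a tie, with 153.1 CPM in KO replicate 2 and 154.0 CPM in WT replicate 1. Egr1, an immediate-early zinc finger factor, had 1.48 ± 0.65, with 314 CPM in KO replicate 1, and 0.43 ± 0.34 without that tumour. The NF-kB subunits Nfkb1 (-0.11 ± 0.30) and Rela (0.08 ± 0.17) were near 0.

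Of 15 genes that answer to interleukin 6 and STAT3, 14 were negative and 6 had every KO tumour below every WT tumour, with a median of -0.53. Without a single tumour that median ran from -0.93 (KO replicate 1) to -0.39 (WT replicate 3). Socs3, the STAT3-induced inhibitor of cytokine receptors, had 9.29, 5.91 and 6.61 CPM in KO and 44.5, 40.6 and 63.5 CPM in WT (-2.77 ± 0.27, edgeR FDR 0.407). The kinase Pim1 had 4.78, 7.13 and 10.3 CPM in KO and 41.3, 29.4 and 18.8 CPM in WT (-2.01 ± 0.39), and the nuclear IkB protein Bcl3 had 18.8, 11.6 and 13.5 CPM in KO and 27.1, 31.0 and 26.6 CPM in WT (-0.95 ± 0.21). Among the WT tumours, Socs3 was highest in replicate 3, as Gadd45g was, Pim1 in replicate 1 and Bcl3 in replicate 2.

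Of 15 NF-kB targets, 12 were negative, but the median was -0.13, and it was 0.09 without WT replicate 3 and -0.31 without KO replicate 1. Those with separate genotypes were the neutrophil chemokine Cxcl1 (25.1, 10.6 and 8.93 CPM in KO, 113, 132 and 97.0 CPM in WT; -2.94 ± 0.43, edgeR FDR 0.797), Bcl3 and Nfkbiz (-0.84 ± 0.24). Nfkbia, the feedback inhibitor IkB-alpha, had -0.36 ± 0.24 with overlap.

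The immediate-early genes, 15 of 21 negative with a median of -0.66, depended on WT replicate 3, without which the median was 0.59. Zfp36, an mRNA decay factor, had -0.68 ± 0.28 and Ier2 had 0.52 ± 0.23. Gadd45b shared that dependence, with its highest level in WT replicate 3, whereas Gadd45g had every KO tumour below WT replicates 1 and 2 as well. Of 13 TGF-beta and SMAD genes, 6 were negative and the median was 0.05 (0.39 without WT replicate 3 and -0.19 without WT replicate 2), with Ltbp2 at 0.87 ± 0.57, Id3 at -0.31 ± 0.38 and Id1 at 0.36 ± 0.50.

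Of 13 genes of the integrated stress response, 4 were negative and the median was 0.35, which was -0.56 without KO replicate 1. The serine synthesis genes Phgdh (1.64 ± 1.26) and Psat1 (1.26 ± 1.35) peaked in that tumour, and without it they had -0.30 ± 1.08 and -1.08 ± 1.13. Atf5 (-0.55 ± 0.58) peaked in WT replicate 1 and had 0.39 ± 0.32 without it. Of 13 glucocorticoid and fasting genes, 10 were negative and the median was -0.27 (-0.08 without WT replicate 3). The steroid receptor co-chaperone Fkbp5 had -0.88 ± 0.37, the pyruvate dehydrogenase kinase Pdk4 -0.71 ± 0.35 (-0.25 ± 0.22 without WT replicate 3), and G6pc, the last enzyme of glucose release, was higher in every KO tumour (1.05 ± 0.44).

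**Figure D4:**
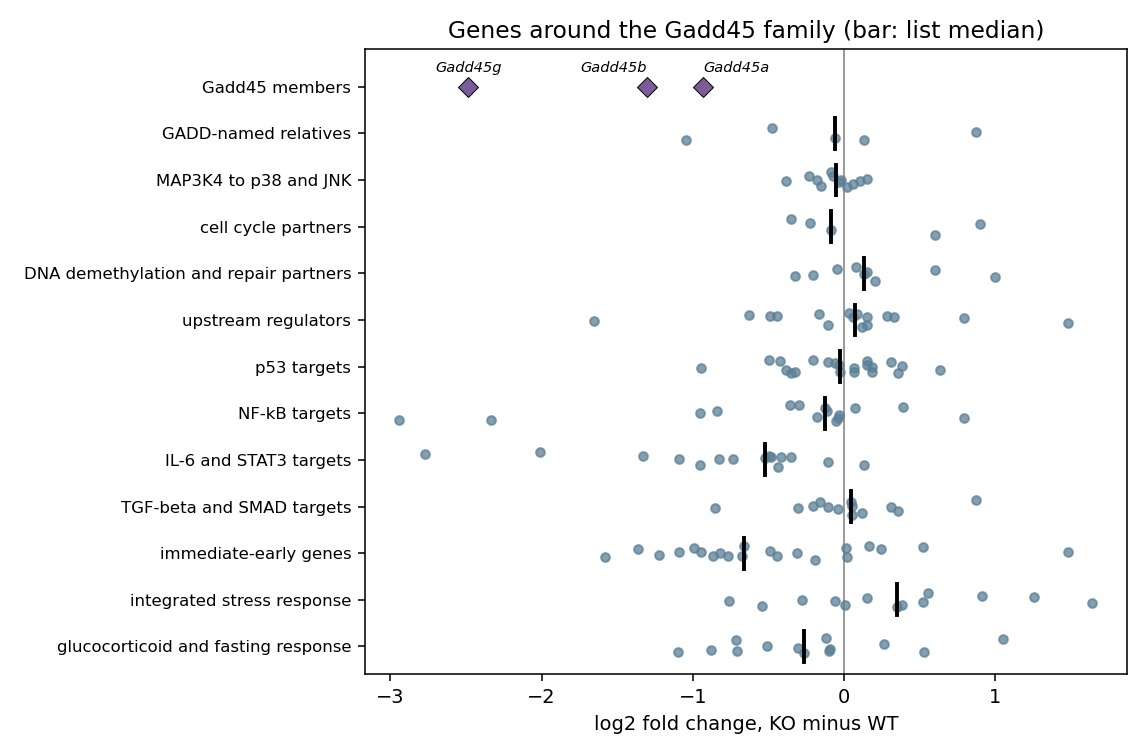
Log2 fold change (KO minus WT) of the 3 Gadd45 members (diamonds) and of each tested gene of the 12 lists (points), with the list median as a bar. Gadd45g at -2.49 lies beyond most list genes, and the medians range from -0.66 for immediate-early genes to 0.35 for the integrated stress response.

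Summed markers of several other cell types were lower in KO tumours, as Gadd45g was. In bulk tumours, fewer cells of a type and less RNA per cell cannot be told apart. The sum of 10 T and NK cell markers was 2.45 to 4.12 CPM in KO and 4.25 to 6.98 CPM in WT, with 9 of 10 negative and Cd8a and Cd4 the most counted. The sum of 10 endothelial markers, led by Stab1 and Stab2, was 217.5 to 265.8 CPM in KO and 313.7 to 379.9 CPM in WT, with 8 of 10 negative. The sum of the 8 neutrophil markers tested, led by S100a9 and Csf3r, was 5.20 to 10.3 CPM in KO and 10.4 to 45.9 CPM in WT, with 8 of 8 negative. Each of these 3 sums was lower in every KO tumour than in any WT tumour. The gap was narrow for neutrophils, between KO replicate 1 and WT replicate 1. It was also narrow for T and NK cells, between KO replicate 1 (4.12 CPM) and WT replicate 2 (4.25 CPM). Single markers with every KO tumour below every WT tumour were 5 for T and NK cells, 6 for endothelium and 3 for neutrophils. Of all genes tested, 51.8% were negative, 3.96% had every KO tumour below every WT tumour and 4.15% had every KO tumour above. The sums overlapped for the 10 macrophage and Kupffer markers (100.4 to 152.5 CPM in KO, 109.2 to 361.5 CPM in WT), led by Csf1r and Clec4f, the 7 B and plasma cell markers (7.14 to 20.7 CPM in KO, 8.22 to 61.4 CPM in WT), led by Jchain and Cd79b, the 10 stellate and fibroblast markers (334.9 to 757.9 CPM in KO, 172.6 to 482.7 CPM in WT), led by Col3a1 and Reln, and the 7 cholangiocyte markers (91.6 to 487.0 CPM in KO, 52.0 to 491.8 CPM in WT), led by Spp1. WT replicate 3, the tumour with the most Gadd45g and Gadd45b, also had the highest neutrophil sum. KO replicate 1 and WT replicate 1 had near-equal neutrophil sums of 10.3 and 10.4 CPM. In those 2 tumours Gadd45g had 3.32 and 12.1 CPM and Gadd45b 2.15 and 0.964 CPM. Near-equal sums did not mean equal single markers. Retnlg, on the same neutrophil list, had 0.304 CPM in KO replicate 1 and 1.55 CPM in WT replicate 1. The rest of that list together was higher in KO replicate 1. Among the lists with overlapping sums, 9 of 10 macrophage and Kupffer markers were negative (median -0.999, 2 with every KO tumour below every WT tumour). So were 6 of 7 B and plasma cell markers (median -1.18, 3 with every KO tumour below every WT tumour). The highest B and plasma cell sums, in KO replicate 1 and WT replicate 3, were mostly Jchain. Of the stellate and fibroblast markers 8 of 10 were positive (median 0.84, 1 with every KO tumour above every WT tumour). Of the cholangiocyte markers 6 of 7 were negative (median -0.33, 0 without overlap). No marker in these lists was at 0 in all tumours, and the part of any cell type in the Gadd45 levels was not tested.

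**Figure D5:**
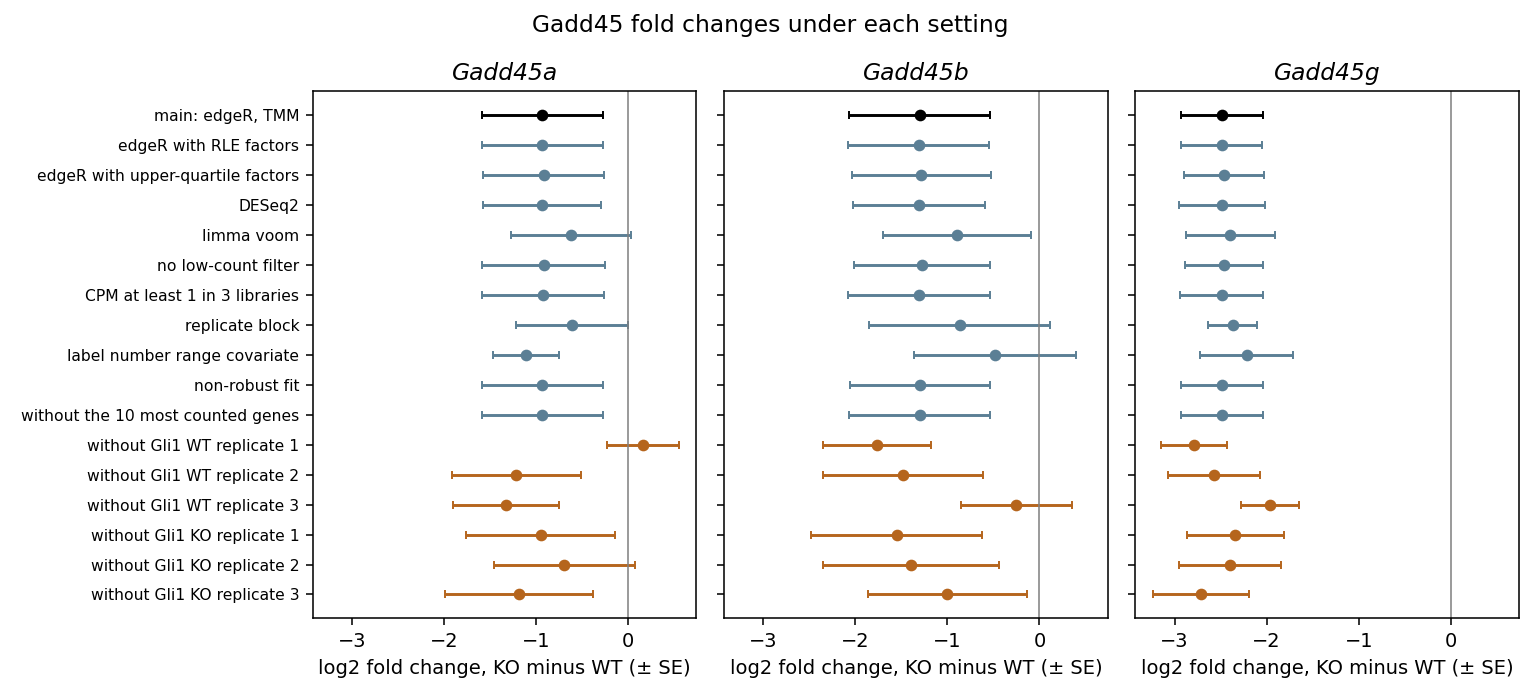
Log2 fold change (KO minus WT) ± SE of each member under the main fit (black), other tools, scalings, filters and designs (blue) and without each tumour in turn (orange). Gadd45g stays between -2.79 and -1.96, while Gadd45a is 0.16 without WT replicate 1 and Gadd45b is -0.25 without WT replicate 3.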

How the data were processed

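For each gene and tumour the authors deposited a raw count and an RPKM. The tools bcl2fastq, TopHat2 2.0.6 and HTSeq and the builds hg19 and GRCh37 are named, per the submitters' processing notes. The gene identifiers are nevertheless mouse, and 84.2% of the 42462 identifiers shared with GENCODE M21 (GRCm38) had the same start, so coordinates were read as GRCm38. The deposited RPKM values, scaled by the table's coding length, were used only to compare members with each other. The count test was edgeR 4.0.16 under R 4.3.3 (filterByExpr, TMM, robust quasi-likelihood, two-sided, Benjamini-Hochberg over 18359 genes, FDR 0.05). DESeq2 1.42.0 and limma 3.58.1 (voom) were alternatives, with other scalings, filters, designs and each tumour left out. Log2 CPM used a prior count of 2. The SE given with an edgeR log2 fold change is its absolute value divided by the square root of its quasi-likelihood F statistic. Of 226 list symbols, 222 matched as deposited, 3 through the current symbol of the identifier, and 1 was unmatched. The members and lists were chosen with earlier results of these data known. Genes were named by rule: the 3 of smallest p per list, 11 fixed regulators and partners, the 5 nearest profiles per member and the 2 most counted markers per cell type. Of these, 1 profile and 1 marker are not reported here. Reads lack molecular identifiers, so depth gives counting error only. Promoter sequences are RefSeq's for GRCm38.p6, which had 1 window for each of the 3 members.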

Additional observations from a re-analysis of the deposited data

How the results depend on the processing

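Leaving out each tumour in turn gave log2 fold changes from -1.33 to 0.16 for Gadd45a, from -1.76 to -0.25 for Gadd45b and from -2.79 to -1.96 for Gadd45g. Under the other 10 settings the ranges were -1.11 to -0.61, -1.31 to -0.48 and -2.49 to -2.22, all negative. The fold change of Gadd45b among these was smallest in size when the range of each sample's label number was a covariate (-0.48), and the cause was not tested. DESeq2 called 64 genes and 3 list genes, against 0 and 0 under every other setting (edgeR and voom), an edgeR FDR of 0.1 included. With the replicate number as a block the fold changes were -0.61, -0.87 and -2.37, with 0 genes called. Same-numbered tumours deviated from their group means with correlations of -0.29, 0.18 and -0.34. With 3 tumours per genotype these values cannot settle if the numbers pair the tumours. The median of the immediate-early genes was 0.59 without WT replicate 3 and 0.01 with the block, and that of the other 11 lists moved by less than the median within-genotype SD of its genes under every alternative. The medians of the DNA demethylation and repair, IL-6 and STAT3, and glucocorticoid lists kept their sign under all 16 alternatives, and each of the others changed sign under at least 1.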

Other observations

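The members varied between tumours of a genotype more than most genes of like abundance. The pooled SD within genotypes of log2 CPM was 0.98 for Gadd45a, 1.18 for Gadd45b and 0.62 for Gadd45g, against a median of 0.38 over all genes. Among genes whose mean log2 CPM lay within 0.5, these stood at the 92.4, 90.3 and 84.5 percentile. The spread was mostly in the WT tumours, where the highest tumour exceeded the lowest 5.50-fold for Gadd45a, 8.40-fold for Gadd45b and 3.05-fold for Gadd45g, against 2.04-fold, 2.47-fold and 1.61-fold in KO.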
